A study of Homo sapiens with 26 samples.

Results

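Histone genes were followed in a plasma membrane APEX-seq experiment. The members were the protein-coding genes whose GENCODE 29 name begins HIST1H, HIST2H, HIST3H or HIST4H, which are the replication-dependent cluster genes, or H1F, H2AF or H3F, which are the replacement genes. Of 87 genes with such a name, 64 had a row among the 25745 genes of the expression table, 54 of 71 cluster genes and 10 of 16 replacement genes. The other 23 were not analysed here. The rule reads gene names and no measured value.

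The cells were HEK293T, a transformed human embryonic kidney line, stably expressing APEX2, a peroxidase that tags molecules close to it with biotin. APEX2 was joined to Lyn11 or Lck sequences, which place it on the inner face of the plasma membrane, or to CD28 or PDGFR sequences, which place it on the outer face. Each construct had labeled libraries, made from RNA enriched on streptavidin beads after 30 min of biotin-phenol and 1 min of 1 mM hydrogen peroxide, and control libraries called unlabeled. Lyn11 had 4 labeled and 4 control libraries, and each of the other constructs had 3 and 3. The series calls them biological replicates without naming separate cultures, so p-values measure the spread between these libraries. All 8 groups share the stable APEX2 fusion, and the labels list the same labeling and bead steps for the controls, so which step the controls lacked is not given in the sources used here. Whether a stable line was 1 clone or a pool, and whether RNA was selected for poly(A) or read by strand, is not given either.

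Histones package DNA. Pairs of H2A, H2B, H3 and H4 form the nucleosome core, and H1 binds the linker DNA between cores. Cluster genes lie in tandem groups, are transcribed in S phase and have no introns. Their mRNAs end in a conserved stem-loop in place of a poly(A) tail, which is bound by SLBP and cut with the help of the U7 particle. Replacement genes such as H3F3A, H3F3B and H2AFZ are expressed through the cell cycle as ordinary polyadenylated mRNAs. Neither kind of mRNA encodes a secreted or membrane protein.

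The stem-loop was looked for in both classes. The transcripts of each gene were searched 3′ of the stop codon, on the sense strand, for 16 bases made of GG, any 3 bases, TT, any base, T, any base, A, any 3 bases and CC, with 6 paired bases (G with T allowed) around a loop of 4. The capitals below mark these 16 bases, 5 bases are kept on each side, and the sequences are those of GENCODE 29 transcripts, written with T for U.
HIST1H2AC: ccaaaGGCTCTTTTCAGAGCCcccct
HIST1H3H: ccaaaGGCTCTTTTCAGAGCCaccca
HIST2H2BE: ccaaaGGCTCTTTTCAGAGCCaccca
HIST3H2A: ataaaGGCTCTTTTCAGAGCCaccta
HIST1H4B: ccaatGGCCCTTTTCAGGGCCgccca
HIST1H4E: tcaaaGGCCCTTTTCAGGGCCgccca
HIST1H4H: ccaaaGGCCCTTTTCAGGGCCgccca
HIST1H4I: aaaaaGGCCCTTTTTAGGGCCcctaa
HIST4H4: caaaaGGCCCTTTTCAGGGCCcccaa
H2AFX: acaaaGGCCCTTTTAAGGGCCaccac

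A match was found in 30 of the 54 cluster genes and in 1 of the 10 replacement genes, H2AFX, which encodes the H2A form phosphorylated at DNA breaks. Among protein-coding genes outside the histone set, 0.256% had a match (52 of 20302). All 8 H4 genes with a match carried the GGCCC stem, and the 22 H2A, H2B and H3 cluster genes with one carried GGCTC. H2AFX had the GGCCC stem. The annotation has no sequence 3′ of the stop codon for 20 of the cluster genes, among them HIST1H3B and HIST1H1C, so no match could be found there. Another 4 cluster genes, HIST1H1E, HIST1H1T, HIST1H4C and HIST1H2BJ, have an annotated 3′ part and no match in it. In 19 of the 30 the annotated transcript runs on for 194 to 1917 bases past the stem-loop.

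The classes also differ in their gene models. Cluster genes had a median summed exon length of 657 bases (312 to 5477), and the exons of 41 of 54 merged into 1 block. Replacement genes had a median of 2745 bases (1507 to 17730). On the chromosomes, 39 cluster genes in the table lie on chromosome 6, 14 on chromosome 1 and 1 (HIST4H4) on chromosome 12, while the 10 replacement genes lie on 10 different chromosomes. Of the cluster genes, 13 shared at least 50% of their 50-base words with another gene, so reads of near-identical copies could be split between them. No replacement gene reached that share.

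Read numbers recovered from the table were 19.99 M to 35.57 M per library for the inside constructs and 11.6 M to 16.62 M for the outside constructs, and the spread around group means was 0.24 to 0.52 log2 units inside and 0.50 to 0.96 outside. Depth and spread therefore follow the side of the membrane and cannot be told apart from it. CD28 labeled 2 and PDGFR control 2 stood apart, with 3147 and 3021 genes at 0 reads. A mean log2 FPKM above 1 was found for 5 of the 6 measured HEK293T markers, and their summed level was 72.1 to 134 FPKM. Of 6 markers each for blood, fibroblasts and epithelial carcinoma, 2, 4 and 3 were measured, and 1, 1 and 0 had a mean above 1. The measured ones summed to 1.98 to 5.94, 5.11 to 10.7 and 0.74 to 2.85 FPKM.

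Histone mRNAs were among the abundant RNAs of every library. On the scale of log2 FPKM, which is per length, 40 of the 64 genes had a mean of at least 5 over the 26 libraries, a level passed by 4.3% of all rows. The median gene stood at 5.89 in the cluster class and at 5.43 in the replacement class, against 1.52 over all rows. HIST1H3B, a cluster gene for H3 (chromosome 6, 26031650 to 26032060 on hg38), was the highest at 9.74 ± 0.34 (SD, n = 26). The linker histone gene HIST1H1C followed at 9.40 ± 0.24, and HIST1H2BK, HIST1H4D, HIST2H2AC, HIST1H2BO, HIST1H4C, HIST1H1E, HIST1H2AH and HIST1H4B stood between 8.43 and 8.97. These 10 genes cover all 5 histone types. From HIST1H2BK down, neighbours in that order differ by less than their SDs of 0.35 to 0.54.

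At the other end, HIST1H1T, the testis linker histone gene, stood at 1.43 ± 0.75, and HIST1H1A at -0.60 ± 1.11, with 0 to 31 reads. Both are named after their values were seen. HIST1H2BE, at -1.70, was the 1 member that failed the filter on low values (log2 FPKM above 0 in at least 3 libraries) and was not tested. The 53 other cluster genes and all 10 replacement genes were tested. SDs over the 26 libraries were largest for genes of few reads and for HIST2H2AA4, at 1.22.

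**Figure D1:**
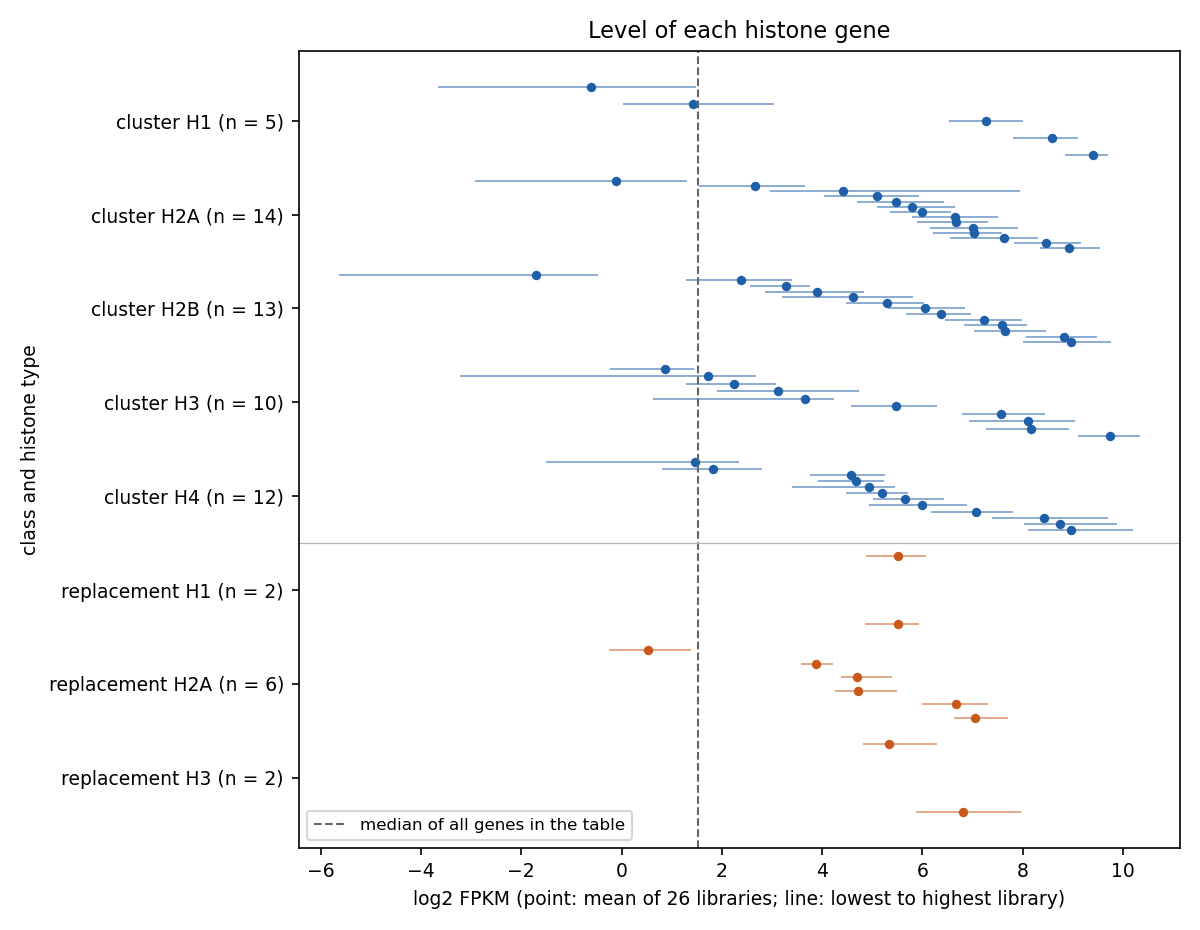
Mean level of each of the 64 histone genes over 26 libraries (points, x axis in log2 FPKM), with a line from the lowest to the highest library, grouped on the y axis by class and histone type; the dashed line is the median of all rows, 1.52. In each of the 5 cluster types the lowest gene is below that line, and the highest gene stands between 8.93 and 9.74.

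Among replacement genes, H2AFZ, which encodes the H2A variant placed at promoters, led at 7.05 ± 0.32 (SD, n = 26). H3F3A and H3F3B, both of which encode the replacement form of H3, stood at 6.80 ± 0.50 and 5.34 ± 0.35. H2AFX stood at 6.66 ± 0.37, and the linker genes H1FX and H1F0 both at 5.52. H2AFY2 and H2AFV, for a macroH2A and a second form of the promoter variant, stood at 4.72 and 4.69. H2AFY, the other macroH2A gene, was at 3.88 and H2AFJ at 0.53.

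The order by FPKM, which is per annotated length, differed from the order by reads. The 20 cluster genes annotated without a 3′ part had a median of 7.16 log2 FPKM over a median of 393 bases, and the 34 with one had 5.39 over 1265 bases, while in reads scaled to the library total but not to length (RPM) the groups were closer, at 81.6 and 71.4. Ranked by reads, H3F3A moved to second place at 375 RPM, behind HIST1H1C at 449 RPM. H2AFY, the longest model, moved from rank 49 by FPKM to rank 7 at 267 RPM.

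Summed over all members, cluster mRNAs outweighed replacement mRNAs in every library. The cluster sum, over 54 genes, was 8.0 to 19.8 times the replacement sum, over 10 genes, in FPKM, which is per annotated length. As shares of reads, cluster genes took 0.308% to 0.679% and replacement genes 0.133% to 0.241%. The difference of the log2 sums, in which library scaling cancels, was lowest in Lyn11 libraries, at 3.00, 3.63, 3.53 and 3.48 in the labeled and 3.91, 3.57, 3.55 and 3.70 in the control libraries. Lck libraries gave 4.01, 3.96 and 3.95 labeled and 4.14, 4.13 and 4.17 as controls, the 1 construct in which the groups did not overlap. CD28 libraries gave 4.23, 3.44 and 3.81 labeled and 4.09, 4.20 and 4.31 as controls. PDGFR libraries gave 4.04, 3.99 and 4.02 labeled and 4.18, 3.79 and 4.13 as controls.

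Group means of this difference were lower in labeled libraries in each construct. The labeled mean minus the control mean was -0.27 (Lyn11), -0.17 (Lck), -0.37 (CD28) and -0.02 (PDGFR), with pooled SDs of 0.23, 0.02, 0.29 and 0.15. The average over the constructs was -0.21. This sum has no test. For CD28 it was -0.18 without labeled 2 and -0.58 without labeled 1, for Lyn11 -0.14 without labeled 1, and for PDGFR 0.05 and 0.03 without control 1 or control 3, so for PDGFR the sign turned.

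**Figure D2:**
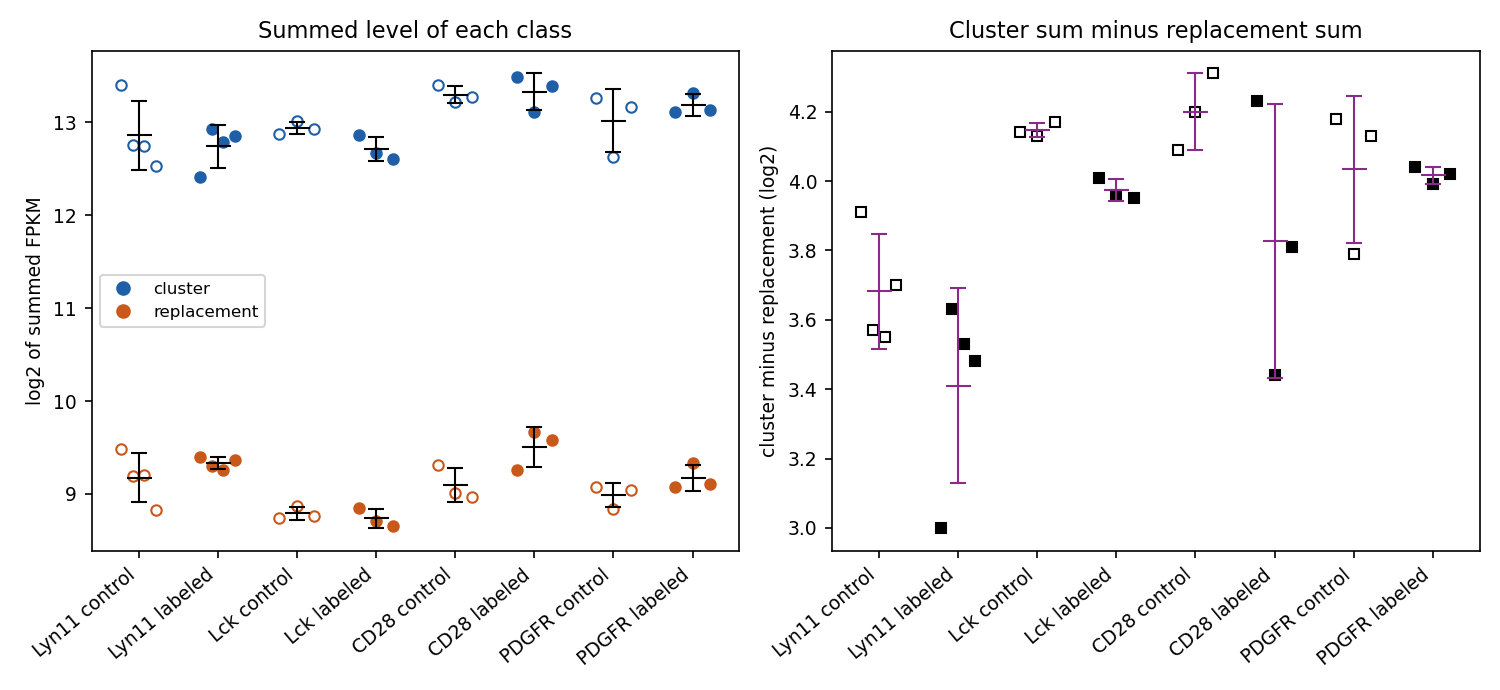
Left, log2 of the summed FPKM of cluster (blue) and replacement (orange) genes in each library; right, cluster sum minus replacement sum (log2). Filled symbols are labeled and open symbols control libraries, with bars for the mean and SD of each group; Lck labeled libraries (3.95 to 4.01) lie below Lck controls (4.13 to 4.17), and the groups of the other constructs overlap.

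The design asks whether labeling at either face of the membrane enriched these mRNAs. Each single construct gave no call: 0 of the 63 tested histone genes passed for Lyn11, where 0.579% of all 22284 tested genes did, and 0 passed for Lck (0.794% of all), CD28 (0.476%) and PDGFR (2.13%). By direction, in that order, 0.53%, 0.758%, 0.175% and 1.37% of all tested genes were called higher and 0.0494%, 0.0359%, 0.301% and 0.758% lower. Calls are at an adjusted p under 0.05 by limma, and limma voom on the recovered reads also called 0 in each. Over all 22226 genes in that fit it called 217, 282, 21 and 71, in the same order. At an unadjusted p under 0.05 there were 3 cluster genes with Lyn11, 2 with Lck, 4 with CD28 and 2 with PDGFR, and 5 replacement genes, all with CD28. Of all tested genes 5.65%, 6.4%, 13.5% and 14.1% had such a p in that order. The test could miss modest changes. The median half-width of the 95% interval was 0.51 to 0.59 log2 units for cluster genes and 0.29 to 0.34 for replacement genes.

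Cluster and replacement genes differed in where their medians lay. For Lyn11 the median cluster difference was -0.13 and the median replacement difference 0.06, against -0.03 over all tested genes, and for Lck -0.22 and -0.04 against -0.04. For CD28 they were -0.01 and 0.39 against 0.03. For PDGFR the order turned, at 0.23 and 0.11 against 0.02. Replacement genes lay above 0 in 8, 3, 10 and 9 of 10 cases for Lyn11, Lck, CD28 and PDGFR, and cluster genes in 15, 8, 24 and 41 of 53. Among all tested genes the share above 0 was 45.0%, 44.0%, 52.3% and 52.9%. With CD28 the lists of other genes described below also had positive medians. These were 0.15 for histone mRNA processing, 0.22 for histone chaperones and 0.26 for S phase mRNAs. No test was made of these medians. The CD28 and PDGFR cluster medians rest on the libraries that stood apart: without both they were 0.16 and -0.01. Scaling moved them too, since median centring raised the CD28 median of all genes to 0.15, with the cluster class at 0.11 and the replacement class at 0.51, and quantile normalization gave -0.24 and 0.15.

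By histone type, all 12 tested H2B cluster genes were below 0 with Lyn11 (median -0.27), while H4 genes split 6 and 6. The H2B median was -0.17 without Lyn11 control 1, where 10 of the 12 were below 0, -0.14 without labeled 1 and -0.18 without labeled 4. With Lck all 12 H4 and all 5 H1 cluster genes were below 0, at medians of -0.29 and -0.52. With CD28, 11 of 12 H4 genes were above 0 (median 0.29), and the medians of the other cluster types were -0.12 to -0.02. Without CD28 labeled 2, which stood apart, the H4 median was 0.17 and the others were 0.13 to 0.22, and without CD28 control 3 the H4 median was 0.15. With PDGFR, H2A genes were above 0 in 13 of 14 cases, H2B in 10 of 12, H3 in 9 of 10 and H1 in 4 of 5, and H4 in 5 of 12. Without PDGFR control 2 these counts were 9, 6, 6, 3 and 2. None of these genes passed the test. The genes of a type were measured in the same libraries, and some are near-identical copies. Counts of genes above or below 0, here and elsewhere, are therefore not counts of independent measurements. With library weights by construct, which count the tight Lck libraries more, 6 genes fell with Lck: HIST1H1C by 0.38, HIST1H1E by 0.54, HIST1H2BL by 0.43, HIST1H2BN by 0.39, HIST1H4E by 0.31 and H1F0 by 0.31 (adjusted p = 0.0238 to 0.0388). With these weights 8.22% of all tested genes were called, 2.83% lower. Of the histone genes 9.52% were called, all lower, and no test compared these shares. HIST1H2BL and HIST1H2BN were not among the genes chosen for naming and are given because they passed there.

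**Figure D3:**
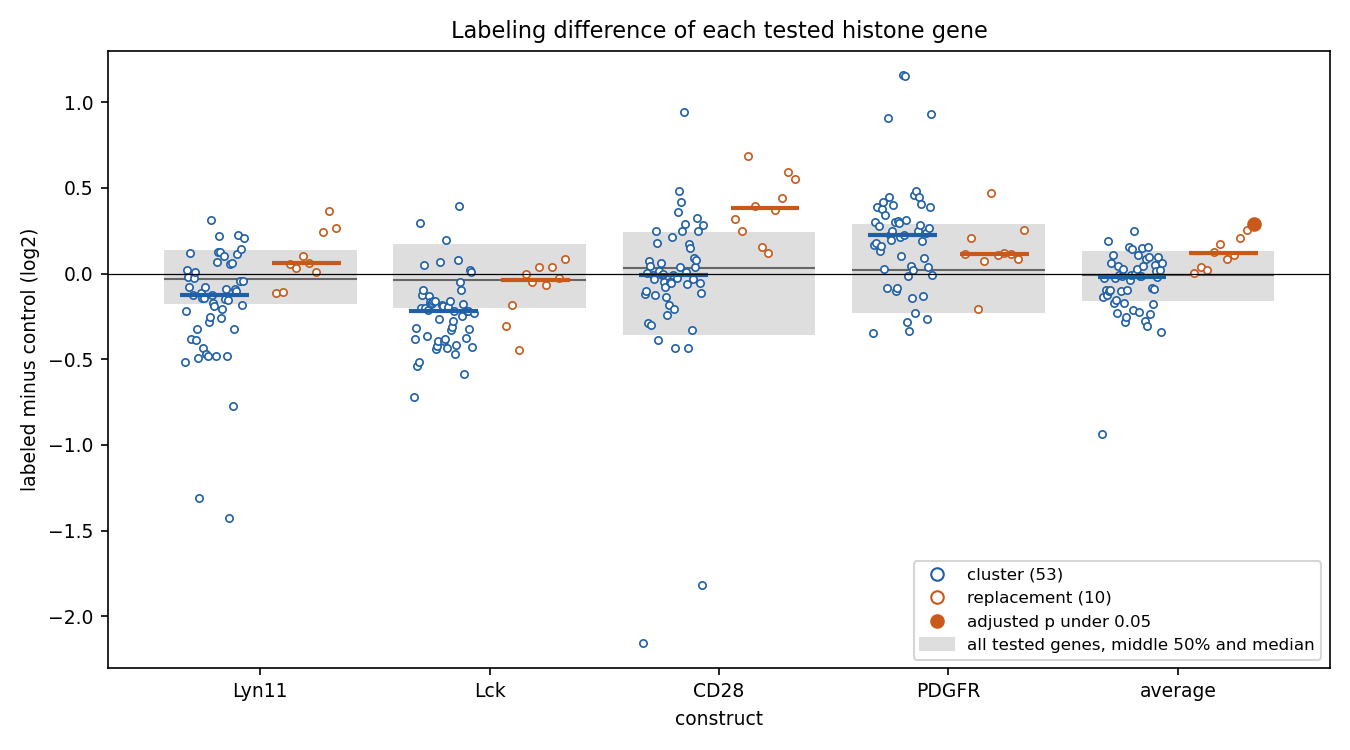
Labeled minus control difference (y axis, log2) of each tested histone gene by construct and for the average of the 4, with cluster genes in blue, replacement genes in orange and thick lines for class medians; grey marks the middle 50% and the median of all tested genes. The 1 filled point, H3F3B in the average at 0.29, is the 1 call, and with CD28 all 10 replacement genes lie above 0.

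Averaged over the constructs, 1 of 63 histone genes was called, H3F3B, against 7.37% of all tested genes (4.29% higher and 3.08% lower). Replacement genes lay at 0.00 to 0.29 with a median of 0.12, and cluster genes at -0.93 to 0.25 with a median of -0.02, against -0.01 over all tested genes. With quantile normalization 7 of the 10 replacement genes were above 0, and without both libraries that stood apart 8 were. At an unadjusted p under 0.05 there were 4 cluster genes, HIST1H2BL, HIST1H2BN, HIST1H1A and HIST1H4K (named after their values were seen), all below 0, and 3 replacement genes, H3F3B, H2AFZ and H3F3A, all above 0, where 19.2% of all tested genes had such a p. The count went to 5 without CD28 labeled 1 (H2AFZ, H3F3A and H3F3B higher, HIST1H2BL and HIST1H2BN lower, where 7.1% of all tested genes were called). It went to 2 without Lyn11 labeled 3, CD28 control 2 or PDGFR control 2, where HIST1H2BL joined H3F3B. Leaving these libraries out in turn, 1451, 1401 and 1711 of all 22284 tested genes were called, against 1642 in the main fit.

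H3F3B (chromosome 17, 75776434 to 75785893 on hg38) encodes the replacement form of H3, and its exons overlap UNK on the opposite strand and MIR4738 on its own. With CD28 it stood at 5.68, 6.28 and 5.96 log2 FPKM in labeled and 5.51, 5.44 and 5.30 in control libraries, and the groups did not overlap. With PDGFR it stood at 5.43, 5.69 and 5.47 against 5.23, 5.29 and 5.30, again without overlap. The gene was called on these same libraries, so their separation is partly set by the choice and is no separate evidence. How many of all tested genes did not overlap within a construct was not counted. With Lyn11 it stood at 5.76, 5.25, 5.40 and 5.39 against 5.55, 4.99, 5.20 and 5.00. Here control 1 lay above 3 of the 4 labeled libraries. With Lck it stood at 5.01, 4.94 and 5.00 against 5.01, 4.81 and 4.86, and the groups overlapped.

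The differences of H3F3B were 0.26 ± 0.13 (Lyn11), 0.09 ± 0.15 (Lck), 0.55 ± 0.15 (CD28) and 0.25 ± 0.15 (PDGFR) (SE; adjusted p = 0.931, 1.0, 0.109 and 0.494). The average was 0.29 ± 0.07 (adjusted p = 0.0168, 95% interval 0.14 to 0.44), a 1.22-fold rise with the same sign in all 4 constructs. It was called in all 34 alternatives run, with adjusted p of 0.00373 to 0.0361 and values of 0.22 to 0.33. Without both libraries that stood apart it was 0.25.

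H3F3A (chromosome 1, 226061851 to 226072001), which encodes the same H3 protein, had an average difference of 0.26 ± 0.11 (adjusted p = 0.188). It stood at 6.96, 7.97 and 7.59 log2 FPKM in CD28 labeled libraries and at 7.13, 7.0 and 6.61 in CD28 controls. These groups overlapped, and labeled 2, the library that stood apart, was highest. Its differences were 0.36 ± 0.20 for Lyn11, 0.60 ± 0.22 for CD28, 0.09 ± 0.22 for PDGFR and -0.02 ± 0.22 for Lck. Without CD28 labeled 1 both H3 replacement genes were called with CD28, H3F3A at 0.87 (adjusted p = 0.0421) and H3F3B at 0.70 (adjusted p = 0.0232), where 2.08% of all tested genes were called.

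H2AFZ (chromosome 4, 99948086 to 99950388) averaged 0.21 ± 0.07 (adjusted p = 0.0899), with differences of 0.24 (Lyn11), 0.04 (Lck), 0.44 (CD28) and 0.11 (PDGFR). It passed without CD28 labeled 1, at 0.24 (adjusted p = 0.0494). With Lyn11 it stood at 7.70, 7.30, 7.45 and 7.20 in labeled and 7.33, 7.25, 7.27 and 6.83 in control libraries. Labeled 4 was below 3 of the 4 controls. H2AFX, H2AFV and H2AFY2 averaged 0.17, 0.13 and 0.11 (adjusted p = 0.351 to 0.569). The linker genes H1FX and H1F0 averaged 0.04 and 0.00, and both took a negative sign with quantile normalization.

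**Figure D4:**
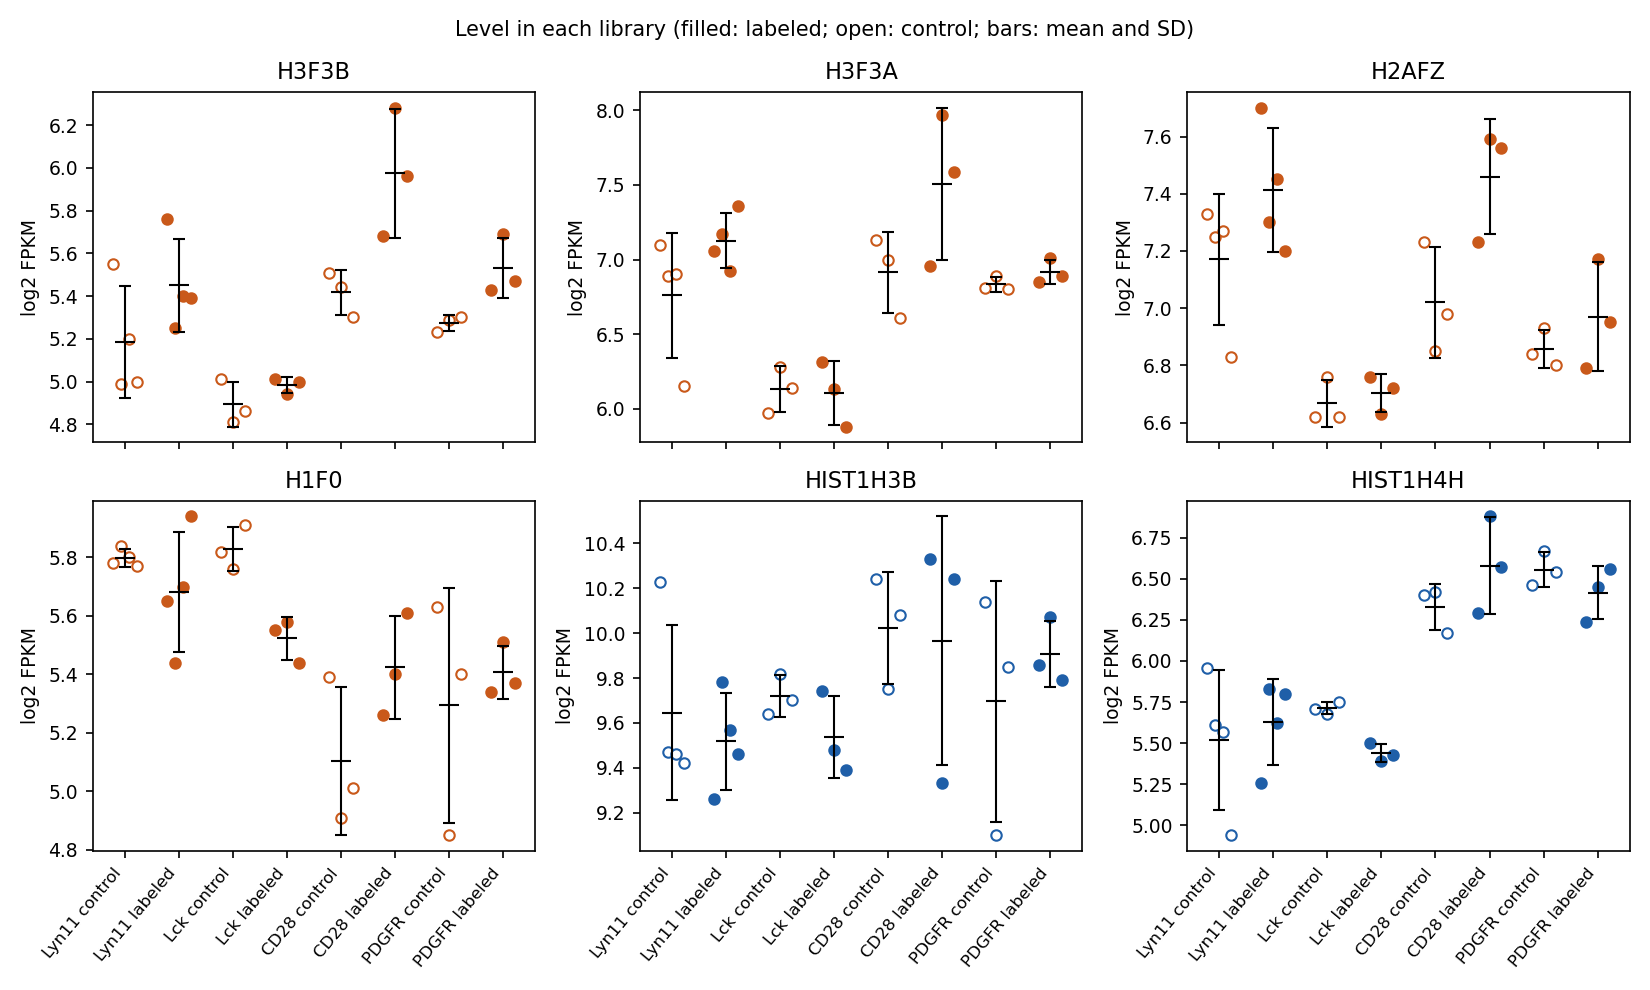
Level of 4 replacement genes (orange) and 2 cluster genes (blue) in each library, y axis in log2 FPKM, with groups on the x axis, filled symbols for labeled and open symbols for control libraries, and bars for the mean and SD. H3F3B is higher in labeled than in control libraries of CD28 and PDGFR without overlap, and HIST1H4H separates inside from outside controls (4.94 to 5.96 against 6.17 to 6.67). Both genes were called on these same libraries, so the separation is no separate evidence.

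The most abundant cluster genes stayed close to 0 in the average. HIST1H3B stood at 9.26, 9.78, 9.57 and 9.46 log2 FPKM in Lyn11 labeled libraries and at 10.23, 9.47, 9.46 and 9.42 in Lyn11 controls. Control 1 was far above the other controls. With CD28 it stood at 10.33, 9.33 and 10.24 labeled and 10.24, 9.75 and 10.08 as controls. There the labeled library that stood apart was lowest. The average was -0.04 ± 0.14 (adjusted p = 0.931, 95% interval -0.33 to 0.25), and it took a positive sign, at 0.01 to 0.04, without Lyn11 control 1, CD28 labeled 2 or PDGFR control 1.

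HIST1H1C averaged -0.14 ± 0.10 (adjusted p = 0.501) and the other 8 genes of high level -0.22 to 0.11. HIST1H4D was the lowest of these at -0.22 and HIST1H2AH and HIST1H4C were the highest at 0.11. HIST1H2BK, at -0.17, passed with quantile normalization (-0.30, adjusted p = 0.0442). The largest difference of any cluster gene came from few reads: HIST1H1A stood at -0.93 ± 0.42 in the average and at -2.15 ± 0.86 with CD28, where labeled libraries had 0 to 5 reads and controls 6 to 12.

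The face of the membrane was tested as an interaction, the mean inside difference minus the mean outside difference. No histone gene passed, where 0.00449% of tested genes did. At an unadjusted p under 0.05 there were 3 cluster genes (HIST1H4E, HIST1H2BK and, named after its value was seen, HIST1H4J) and 2 replacement genes (H1F0 and H1FX), where 6.52% of all tested genes had such a p. Limma voom called 0, and also 0 of all 22226 genes in that fit. Cluster genes lay below 0 in 49 of 53 cases with a median of -0.30, and replacement genes in 10 of 10 with a median of -0.25, against -0.04 over all tested genes. The share of all tested genes above 0 was 44.7%. Lists of other genes, described below, were also low. Their medians were -0.14 for histone mRNA processing, -0.14 for histone chaperones and -0.23 for S phase mRNAs, where the highest gene was at -0.06. With quantile normalization the medians were -0.09 and -0.05, and 38 and 7 genes lay below 0. The smallest adjusted p of a histone gene was 0.623, for HIST1H4E at -0.49 ± 0.16.

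The unlabeled lines themselves differed in histone mRNAs. Comparing the mean of the Lyn11 and Lck controls with that of the CD28 and PDGFR controls, 12 of 63 histone genes were called, where 11.2% of all tested genes were. Limma voom called 14, and 2646 of all 22226 genes in that fit. Of the 12, 10 were lower and 2 higher in the inside lines, where 3.84% of all genes were called lower and 7.34% higher. Cell line, depth, spread and side of the membrane cannot be told apart in this comparison, which sets control libraries against control libraries.

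H4 genes made up most of the calls. Of 12 tested H4 genes, 6 were lower in the inside controls, HIST1H4B, HIST1H4C, HIST1H4D, HIST1H4E, HIST1H4H and HIST4H4, and HIST1H4I was higher. The other types had 1 lower of 5 for H1 (HIST1H1D), 1 of 14 for H2A (HIST3H2A), 2 of 10 for H3 (HIST1H3A and HIST2H3D) and 0 of 12 for H2B. No test compared the types. The called H4 genes lie on chromosome 6 except HIST4H4 on chromosome 12, and 5 of the 7 carry an annotated stem-loop, printed above. HIST1H4B, HIST1H4E, HIST1H4H and HIST4H4 share the same 16 bases, and HIST1H4I differs from them in the loop.

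HIST1H4H (chromosome 6, 26277609 to 26285638) had the smallest adjusted p. Its level was 4.94 to 5.96 log2 FPKM in the 7 inside controls (median 5.68) and 6.17 to 6.67 in the 6 outside controls (median 6.44), and the groups did not overlap. The difference was -0.83 ± 0.13 (adjusted p = 0.00059). In the labeled libraries, which enter this test through the shared spread and not through the difference, inside and outside levels did not overlap either, at 5.26 to 5.83 and 6.24 to 6.88.

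HIST1H3A and HIST2H3D, genes for H3 of the same length, showed the largest negative differences. HIST1H3A stood at 6.93 to 8.57 inside (median 7.51) and 7.92 to 9.04 outside (median 8.62), a difference of -0.99 ± 0.20 (adjusted p = 0.00337). Lyn11 control 1, at 8.57, was the inside library that reached into the outside range. HIST2H3D stood at 7.26 to 8.72 and 8.21 to 8.84, with the same library at the top of the inside range, a difference of -0.84 ± 0.19 (adjusted p = 0.00723), and it shares 80.4% of its 50-base words with other H3 genes and pseudogenes.

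The other called cluster genes lay lower inside by 0.41 to 0.79. HIST1H4B was at -0.79 ± 0.21, HIST1H4D at -0.63 ± 0.17, HIST4H4 at -0.58 ± 0.12, HIST3H2A at -0.57 ± 0.16, HIST1H1D at -0.51 ± 0.14, HIST1H4C at -0.49 ± 0.15 and HIST1H4E at -0.41 ± 0.11 (adjusted p = 0.00384 to 0.0351). For each of the 12 genes both inside construct means lay on 1 side of both outside construct means. The genes were called on this same comparison, so this order is partly set by the choice and is no separate evidence. Single libraries overlapped in all but HIST1H4H, HIST1H4I and H1F0, while of all genes called in the controls 33.5% did not overlap.

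HIST1H4I was the 1 cluster gene higher inside, at 1.76 to 2.17 log2 FPKM against -1.51 to 1.45, with 92 to 181 reads inside and 5 to 60 outside. The difference was 1.26 ± 0.35 (adjusted p = 0.0233). CD28 control 2, with 5 reads, set much of it, and without that library it was 0.79. H1F0 (chromosome 22, 37805093 to 37807436), the linker histone gene linked to differentiated cells, was the 1 replacement gene called. It stood at 5.76 to 5.91 inside and 4.85 to 5.63 outside, a difference of 0.62 ± 0.11 (adjusted p = 0.00124).

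In the labeled libraries all 12 genes differed in the same direction between inside and outside lines, with 6 of 12 not overlapping, HIST2H3D, HIST1H3A, HIST1H4D, HIST1H4E, HIST1H1D and HIST1H4H. Of all 2490 genes called in the controls, 94.3% kept their direction in the labeled libraries and 8.31% did not overlap there. The differences ran from -1.05 for HIST2H3D to 0.59 for HIST1H4I, and H1F0 was at 0.19. These libraries come from the same lines and depths, so they repeat the measurement and not the lines.

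The count of 12 was 19 without Lyn11 control 1 and 7 without Lck control 1 (H1F0, HIST1H3A, HIST1H4B, HIST1H4E, HIST1H4H, HIST2H3D and HIST4H4). The share of all tested genes moved the same way, from 11.2% to 13.2% and 6.7%. The call was lost for HIST3H2A without Lck control 1 or 3 or CD28 control 1, for HIST1H4B without CD28 control 2, for HIST1H4D without Lck control 1 or CD28 control 2, for HIST1H4E without CD28 control 2, and for HIST1H4I without Lck control 1 or PDGFR control 3 (adjusted p up to 0.0732). HIST1H1D lost it without Lyn11 control 3, Lck control 1 or 3, CD28 control 1 or 3, or PDGFR control 1 or 3. HIST1H4C lost it without Lyn11 control 2, 3 or 4, any Lck control, CD28 control 1 or 2, or PDGFR control 1 or 3 (adjusted p up to 0.102). HIST1H4C and HIST1H4E also lost it with median centring, which raised the median of all genes from 0.05 to 0.13 in this comparison.

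**Figure D5:**
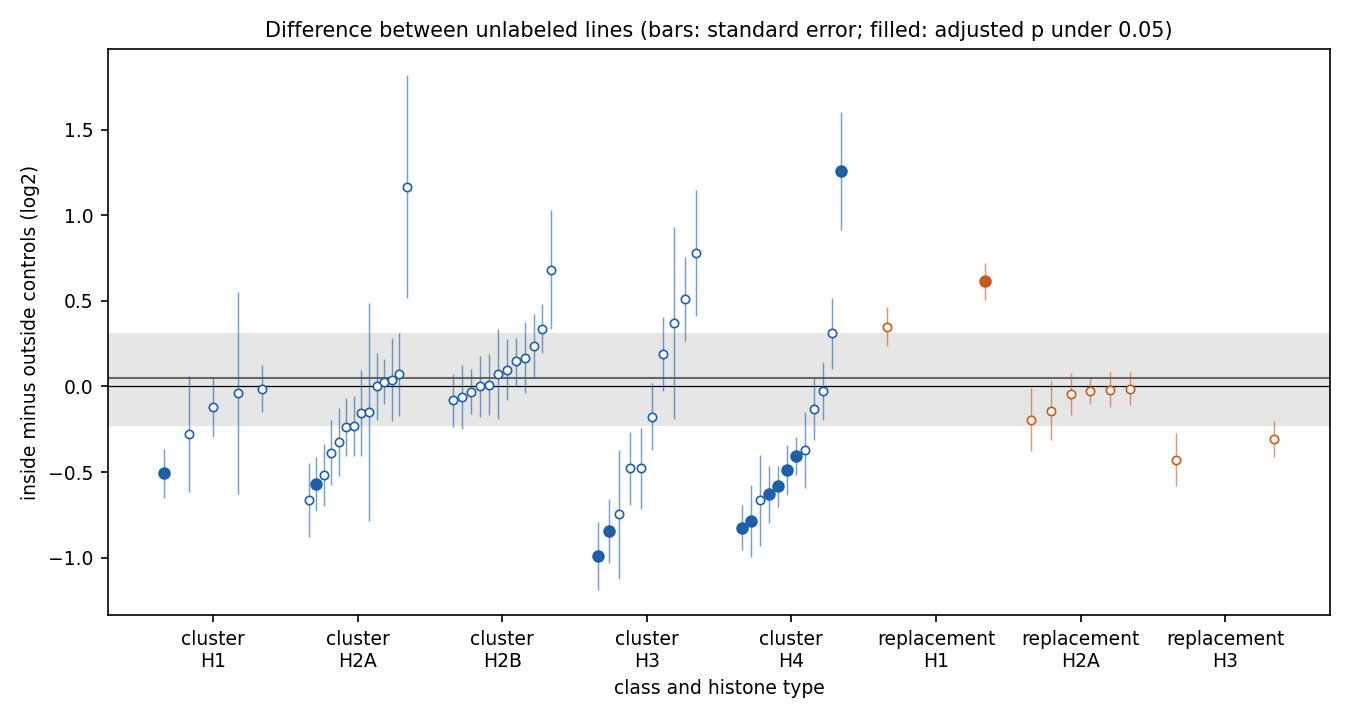
Inside minus outside difference among control libraries (y axis, log2) of each tested histone gene by class and type, with standard errors; filled points were called, and the grey band is the middle 50% of all tested genes. Of 12 H4 genes 6 filled points lie between -0.83 and -0.41 and 1 at 1.26, and H1F0 is the filled replacement gene at 0.62.

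Near-identical copies moved apart from each other. At least 97.1% of the 50-base words of HIST2H2AA3 and HIST2H2AA4 occur in another H2A gene, and the reads given to HIST2H2AA4 ranged from 4.44 to 122 RPM over the 26 libraries, a 27.6-fold range. Its share of the pair was 44.3% in Lyn11 control 1, and 4.6% in both Lyn11 labeled 3 and Lyn11 control 3. Summed, the pair ranged 4.1-fold, from 67.6 to 276 RPM, so the level of either gene alone is uncertain. HIST2H3A with HIST2H3C, HIST2H4A with HIST2H4B and HIST1H4J with HIST1H4K share 81.2% to 100% of their words with other genes. Their sums ranged 3.3-fold, 2.6-fold and 3.8-fold. Exons of 8 cluster and 6 replacement genes overlap a gene on the opposite strand, HIST2H3A with HIST2H4B and HIST2H3C with HIST2H4A among them, and H3F3A, H3F3B and H2AFZ among the replacement genes.

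Genes that make, process and use histone mRNAs were followed beside them, from lists chosen with earlier results known. Of 25 tested genes for histone mRNA processing, 18 for histone chaperones and 20 for other S phase mRNAs, 0 were called in any single construct (limma) or in the interaction. Among all tested genes 0.476% to 2.13% were called in a single construct and 0.00449% in the interaction. SLBP, which binds the stem-loop, stood at 0.01 ± 0.09 in the average (adjusted p = 0.986). In the average 1 of the 20 S phase genes was called, CDC6, which loads the replicative helicase, higher by 0.24 ± 0.06 (adjusted p = 0.0112). Among all tested genes 7.37% were called in the average, 4.29% higher. In the control comparison 7.34% of all tested genes were called higher inside and 3.84% lower. Of the 25 processing genes 1 was called higher there, LSM11 of the U7 particle, by 0.47. Another 1, SRRT, which works with the cap-binding complex, was lower at -0.40. Of the 18 chaperone genes 1 was called higher, HJURP at 0.32, and 1 lower, SRCAP at -0.53. The 20 S phase genes had 4 calls higher inside and 1 lower. RRM1, CDT1 and PCNA were among those higher inside by 0.44 to 0.56, and UHRF1 was lower at -0.51 (adjusted p = 0.00111 to 0.0432). SLBP and the genes of the control comparison were chosen after their values were seen. The list medians there were 0.11, 0.11 and 0.08, against -0.12 for cluster histone genes and 0.05 for all tested genes.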

How the data were processed

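The authors deposited log2 FPKM per gene for 26 libraries. The submitters' processing notes name the build hg38 and the tools HISAT2 2.1.0 and edgeR, the latter with no version given. Groups came from the sample titles, and the series calls the libraries biological replicates. Identifiers were matched to GENCODE 29 (24075 with version, 1579 without, 91 not matched). Genes with a shared lowest value gave a prior count of 1.003 reads and let reads be recovered for 25668 genes. In each library 97.8% to 98.5% of values under 100 reads were whole within 0.05 read. Read numbers cover counting error only.

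The 22284 genes above 0 log2 FPKM in at least 3 libraries were fitted with limma 3.58.1 (R 4.3.3), with a mean for each group over all 26 libraries, an intensity trend, 18 residual degrees of freedom (20.87 after moderation), two-sided tests and Benjamini-Hochberg adjustment over all genes in each of 7 comparisons. The deposited values hold the authors' prior count, so levels of low genes are raised and their differences are drawn toward 0. The fit was tested on simulated data. Errors after ± are standard errors unless SD is named. Sums used FPKM back on the linear scale. Named genes were those called in any comparison, and the 10 cluster and 8 replacement genes with the highest mean. The members and lists were chosen with earlier results of these data known. Alternatives were no filter, log2(FPKM + 1), median centring, quantile normalization, a replicate block, weights by construct, limma voom on recovered reads and leaving out each library, and for the sums medians of the members, leaving out the most abundant gene of each class and splitting by stem-loop. Added after seeing the data were leaving out both libraries that stood apart and sums of RPM. The values of 1 S phase gene are not reported here.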

Additional observations from a re-analysis of the deposited data

Results flagged for a closer look

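In all, 3 values in the Lyn11 groups of 4 libraries lay far from the other 3 of their group. HIST1H3B in Lyn11 control 1 was the highest of its group at 10.23 log2 FPKM, with the others at 9.42 to 9.47. HIST1H2AH in Lyn11 labeled 1 was the lowest at 7.89, with the others at 8.30 to 8.37. H2AFZ in Lyn11 control 4 was the lowest at 6.83, with the others at 7.25 to 7.33. Chance alone sets apart about 1 in 20 groups, and 54 were examined for the 27 named values. Lyn11 control 1 also had the largest cluster sum among inside libraries (13.40 on the log2 scale) and the deepest library, at 35.57 M reads. Without it, 19 histone genes were called between the controls in place of 12, and the average difference of HIST1H3B was 0.01 in place of -0.04.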

How the results depend on the processing

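The counts of called histone genes stayed within 1.5 times the main count in 34 of 34 alternatives for Lyn11, PDGFR and the interaction, 33 of 34 for Lck and CD28, 29 of 34 for the average and 30 of 33 for the controls. Weights by construct gave 6 for Lck. Quantile normalization gave 3 for the average (H3F3B, HIST1H2BK and HIST1H2BL) and 19 for the controls. Calls over all 22284 tested genes also rose with it, from 1642 to 2061 in the average and from 2490 to 3580 in the controls. Leaving out 1 library at a time gave 0 to 2 for CD28, 1 to 5 for the average, 7 to 19 for the controls and 0 elsewhere. The cluster minus replacement difference ran from -0.34 to -0.14 for Lyn11, -0.19 to -0.16 for Lck, -0.58 to -0.18 for CD28, -0.14 to 0.05 for PDGFR and -0.26 to -0.16 for the average. For Lck it was -0.08 with medians of the members, -0.12 with stem-loop genes against genes without one, and -0.21 with summed RPM. Average differences near 0 changed sign: HIST1H3B to 0.00 with median centring, HIST2H2AC to -0.03, HIST1H2AH to -0.01, HIST1H4B to -0.08, H1FX to -0.02 and H1F0 to -0.05 with quantile normalization, and HIST1H4B to -0.04 and H1F0 to -0.05 without both libraries that stood apart. With 1 library left out the ranges were -0.11 to 0.04 for HIST1H3B, -0.05 to 0.10 for HIST1H4B, -0.01 to 0.08 for H1FX and -0.05 to 0.04 for H1F0. The cause of these shifts was not tested. Deviations of same-numbered labeled and control libraries correlated at -0.288 to 0.166. No pairing by number was seen, though groups of 3 or 4 libraries cannot exclude one. With a replicate block the counts were 0 in each construct, 1 in the average and 0 in the interaction, and no control comparison could be fitted with the block. Some genes, such as HIST1H1A and HIST1H4I, had few reads in the outside libraries, which were of lower depth. Whether depth set their differences was not tested.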
